A study of Mus musculus with 6 samples.

Results

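The Ifi200 family, also called the HIN-200 or PYHIN family, is a row of related genes on distal mouse chromosome 1. The 6 genes described here, Ifi207, Aim2, Ifi204, Ifi205, Ifi203 and Mndal, are the listed family genes of that cluster, found by symbol in a count table of 21033 genes. All 6 had a row and at least 1 read. The family was chosen by the fold change of Ifi207 with the compound in this same comparison, so the members' values in it are a description, carry no test and support nothing further. RNA was measured in primary synovial fibroblasts, the mesenchymal cells of the joint lining and the tissue beneath it, grown from the ankles of hTNFtg mice, an arthritis model made with a transgene for human TNF. The cells, cultured through 3 passages, received compound 33, known here only by that code, at 10 µM (3 libraries) or its solvent DMSO (3 libraries) for 48 h. Cells of both groups carry the transgene. The labels name neither the promoter of the transgene nor the strain, the number of mice or whether the replicates of a group were separate cultures, so every test below measures the spread among 3 libraries a group, and that spread may be technical in part.

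Proteins of this family carry a HIN domain, which binds DNA, and most also carry a pyrin domain, through which they join other proteins. Interferons raise the transcription of most of these genes, and several of the proteins detect DNA that has leaked into the cytosol or entered with a virus. The best known, Aim2, assembles an inflammasome with the adaptor Pycard, or ASC, in which caspase-1 is activated and matures interleukin-1β and interleukin-18. Others, such as Ifi204, have been linked to the STING pathway that leads from cytosolic DNA to interferon.

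The libraries held 1594052, 2384850 and 2073016 reads with compound 33, against 1913730, 2179455 and 2897207 reads with DMSO. Each library holds few reads of the family: the 6 genes together had 184, 156 and 116 reads with compound 33, against 43, 140 and 134 reads with DMSO. Levels are given as reads per 1000000 reads of the scaled library (CPM). The protocol sequences only transcript 3′ ends, so a level follows the number of transcripts and needs no division by gene length, and levels of different genes are compared on that scale. All 9 listed markers of synovial fibroblasts were detected, with a summed level of 10869 to 12875 CPM with compound 33 and 12073 to 13585 CPM with DMSO. In edgeR, DESeq2 and limma-voom 0 of the 9 passed the adjusted threshold, but 2 had groups that did not overlap, which held for 13.4% of all genes tested. Thy1, a surface glycoprotein of fibroblasts, stood at 427, 525 and 507 CPM with compound 33, against 851, 871 and 574 CPM with DMSO (edgeR log2 fold change -0.65, SE 0.23, unadjusted p = 0.0128, adjusted p = 0.605). Pdgfrb, a receptor of platelet-derived growth factor, stood at 254, 303 and 264 CPM with compound 33, against 123, 206 and 205 CPM with DMSO (edgeR log2 fold change 0.62, SE 0.23, unadjusted p = 0.0195, adjusted p = 0.671). Their part in the values of the family was not tested. Markers of macrophages and other leukocytes were present at low level, with a summed level of 68.0 to 141 CPM with compound 33 and 75.3 to 164 CPM with DMSO. Of those 18 markers 15 had a read, Cd3e, Cd79a and S100a9 were at 0 in every library, and Ptprc, the common leukocyte antigen, had 0, 1 and 0 reads with compound 33 and 0, 1 and 4 reads with DMSO. Fewer cells of a type and less RNA per cell cannot be told apart in such bulk samples.

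On mm10 the annotated family genes span 681 kb of chromosome 1, from 173350879 to 174031810. Aim2 lies at the centromeric end, at 173350879 to 173466040 on the plus strand. Ifi207 (173723427 to 173741747) and Ifi204 (173747293 to 173766943) are neighbours on the minus strand. Mndal (173849126 to 173942491), Ifi203 (173920407 to 173942672) and Ifi205 (174011998 to 174031810) follow on the same strand. All are protein coding. The count table has 7 further rows of the cluster, among them Mnda and Pydc3, which are older symbols of Ifi211 and Ifi208 in RefSeq.

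Most genes of the cluster carry the same interferon-response element in front of their start, and these sequences are shown because the element recurs in most of these windows and was no part of how the family was chosen. RefSeq windows of GRCm38.p6, from 250 bases before to 50 bases after the annotated start, were found for 5 of the 6 members, all except Ifi204, and for 12 of the 13 rows. They were searched on both strands for the core of the interferon-stimulated response element, which is GAAA, any 2 bases, and GAAA again. The element stood upstream on the gene's own strand in 4 members, Ifi207, Ifi203, Mndal and Ifi205, and in 5 other genes of the cluster. Each line gives 30 bases, 5′ to 3′ on the gene's strand, with the element in capitals.
Ifi207: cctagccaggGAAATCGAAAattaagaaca
Mndal: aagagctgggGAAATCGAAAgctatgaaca
Ifi203: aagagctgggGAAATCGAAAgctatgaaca
Ifi205: ccaggccaggGAAATTGAAAgctatgaaca
Ifi211: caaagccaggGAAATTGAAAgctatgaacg
Ifi213: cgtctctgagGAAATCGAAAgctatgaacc
Ifi208: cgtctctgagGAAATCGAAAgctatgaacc
Ifi206: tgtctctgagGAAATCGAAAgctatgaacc
Ifi214: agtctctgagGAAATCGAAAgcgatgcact

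The Ifi207 stretch is chr1:173741831-173741860 on the minus strand, and its element begins 41 bases before the RefSeq start, which lies upstream of the end of the gene model given above. The elements of Mndal (chr1:173880204-173880233) and Ifi203 (chr1:173942508-173942537), both on the minus strand, begin 36 and 35 bases before a start, and their 30 bases are identical. The element of Ifi205 (chr1:174031870-174031899, minus strand) begins 134 bases before the start and has TT between the GAAA repeats where most others have TC, as does that of Ifi211. Compared with Ifi207, 22 of the 30 bases are the same in Mndal and Ifi203 and 24 in Ifi205, while Ifi207 is the only listed stretch with attaagaaca after the element. These counts include the bases of the GAAA repeats, which are the same in every listed stretch by the search rule.

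Of 32851 windows of all genes, 3.44% held the element on either strand, against 10 of 14 windows of the cluster and 24 of 46 windows of the listed interferon-stimulated genes. The form with TC was rarer, with 16 windows among all genes, of which 7 belonged to this cluster. The others, 1 each, belonged to Adcyap1, Ddx58 (the RNA sensor RIG-I), Gm26797, Gm31431, Parp11, Pnrc1, Ripk1 (a kinase of TNF signalling), Serpinb6a and Six3os1. That form was read from the window of Ifi207 itself, so its count among the related genes of the cluster is a description. Aim2, Ifi202b and Ifi209 had no match in their windows. The Aim2 window (173420354 to 173420653) lies inside the gene model given above, so the start of that model was not searched. The windows of Ifi202b and Ifi209 lie upstream of the annotated gene models. TTCNNNGAA, the core of the interferon-γ activated site, was in 1 window of the cluster, that of Ifi202b, and in 8.30% of all windows. The NF-κB form (GGG, any 2 bases, TT, any base, CC) and GCGTG, the core bound by the aryl hydrocarbon receptor, were in 0 of the 14 windows, against 4.79% and 32.4% of all windows. A match is a description of letters and not evidence of a bound site.

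**Figure D1:**
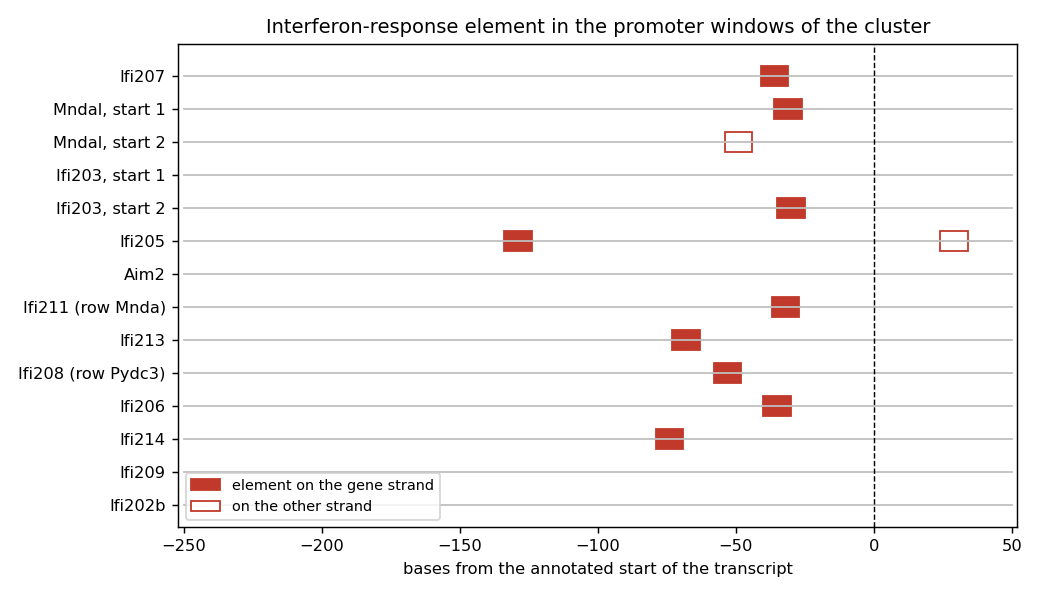
Position of the interferon-response element in the promoter windows of the cluster, in bases from the annotated start (dashed line, x axis), 1 row per window. Filled boxes, on the gene's own strand, lie between 134 and 35 bases before the start in 9 genes, and open boxes mark matches on the other strand.

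Ifi207, which carries a pyrin and a HIN domain, was higher in every compound 33 library than in any DMSO library. It had 69, 41 and 29 reads (42.2, 17.0 and 14.9 CPM) with compound 33, against 9, 8 and 21 reads (4.77, 3.61 and 7.31 CPM) with DMSO. The groups did not overlap, and compound 33 replicate 1 stood well above the other two of its group. The means were 24.7 ± 15.2 CPM with compound 33 and 5.23 ± 1.89 CPM with DMSO (SD, n = 3 each), a 4.52-fold difference with a log2 fold change of 2.18 (SE 0.46, 95% interval 1.20 to 3.18). Without compound 33 replicate 1 the log2 fold change was 1.57. The mean log2 CPM of the interferon-stimulated list, 39 tested genes, was also highest in that library, at 5.57, 4.66 and 5.05 with compound 33 and 4.52, 4.36 and 4.36 with DMSO. The summed level of all 50 listed genes was 2845, 1664 and 2268 CPM with compound 33, against 1828, 1663 and 1532 CPM with DMSO. By that measure the groups overlapped. The part of that list in the value of Ifi207 was not tested.

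Aim2, the DNA sensor of the inflammasome, was scarce, and its groups did not overlap in CPM, which held upward for 5.58% of all genes with a read. It had 3, 13 and 9 reads with compound 33, against 1, 0 and 4 reads with DMSO. These read numbers overlapped: compound 33 replicate 1 had 3 reads (1.83 CPM) and DMSO replicate 3 had 4 (1.39 CPM). The separation of the groups thus rests on the scaling by library depth. In contrast to Ifi207, compound 33 replicate 1 was the lowest of its group, at 1.83 CPM beside 5.39 and 4.63 CPM. The means were 3.95 ± 1.87 CPM with compound 33 and 0.641 ± 0.703 CPM with DMSO (SD, n = 3 each). Their log2 ratio was 2.62 and became 3.90 without DMSO replicate 3, which held 4 of the 5 DMSO reads. With 0 reads, DMSO replicate 2 allows up to 1.35 CPM (3 reads, counting error only). Aim2 is well known from macrophages, and the summed level of the leukocyte markers was 88.6, 68.0 and 141 CPM with compound 33, against 75.3, 89.8 and 164 CPM with DMSO, with overlapping groups. Its part in the values of Aim2 was not tested.

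Ifi204, whose protein p204 is often compared with human IFI16, was the most abundant member in 5 of the 6 libraries, all except compound 33 replicate 1. It had 62, 77 and 55 reads (37.9, 31.9 and 28.3 CPM) with compound 33, against 14, 92 and 81 reads (7.42, 41.5 and 28.2 CPM) with DMSO. DMSO replicate 1 was low, another DMSO library lay above the compound 33 range and the third just under it, so the groups overlapped. The means were 32.7 ± 4.84 CPM with compound 33 and 25.7 ± 17.2 CPM with DMSO (SD, n = 3 each). The log2 fold change of 0.33 (SE 0.43, 95% interval -0.60 to 1.25) was smaller than its error, and it was -0.09 without DMSO replicate 1.

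Ifi205, which in mouse macrophages has been linked to the transcription of Pycard, had 27, 20 and 10 reads (16.5, 8.29 and 5.15 CPM) with compound 33, against 7, 25 and 19 reads (3.71, 11.3 and 6.61 CPM) with DMSO. The groups overlapped, with means of 9.98 ± 5.87 CPM with compound 33 and 7.20 ± 3.82 CPM with DMSO (SD, n = 3 each). Its log2 fold change was 0.43 (SE 0.50, 95% interval -0.65 to 1.51), and -0.10 without compound 33 replicate 1. The row Mnda, the paralog Ifi211, had 44, 17 and 34 reads (26.9, 7.05 and 17.5 CPM) with compound 33, against 38, 40 and 20 reads (20.1, 18.0 and 6.96 CPM) with DMSO. It did not pass in edgeR's quasi-likelihood test (log2 fold change 0.18, SE 0.48, Benjamini-Hochberg adjusted p = 0.964).

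The counts of Ifi205 and Mnda are uncertain relative to each other. In the annotated transcripts, 87.5% of the 50-base words in the last 400 bases of Ifi205 also occur in another gene, all of these in Ifi211, some in Mndal as well, and 85.2% of those of Ifi211 occur in Ifi205. A read of that length from there cannot be assigned to either gene, and the sources used here do not state how the counting treated such reads. Summed, both rows stood at 43.4, 15.3 and 22.6 CPM with compound 33, against 23.9, 29.3 and 13.6 CPM with DMSO, so the groups overlapped for the sum too. Ifi207 was unlike this pair: 2.97% of the words at its 3′ end were shared, all with Ifi204. The share was 1.42% for Ifi203 and 16.5% for Mndal, and for Ifi204 (1.99%) and Aim2 (1.03%) the shared words lay outside the protein-coding genes of the cluster.

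Ifi203 and Mndal, nuclear members of the family, were near the detection limit. Ifi203 had 11, 1 and 9 reads with compound 33, against 7, 6 and 6 reads with DMSO, or 3.92 ± 3.21 CPM with compound 33 and 2.84 ± 0.819 CPM with DMSO (SD, n = 3 each). Mndal had 12, 4 and 4 reads with compound 33, against 5, 9 and 3 reads with DMSO, or 3.68 ± 3.17 CPM with compound 33 and 2.59 ± 1.51 CPM with DMSO (SD, n = 3 each). The groups overlapped for both genes, and a difference between them was not detectable at this depth. For Ifi203 and Mndal the log2 ratios of the means were 0.47 and 0.51. Without compound 33 replicate 1 they were -0.17 and -0.47. Exons of Ifi203 and Mndal overlap by 37 bases on the same strand in the annotation.

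**Figure D2:**
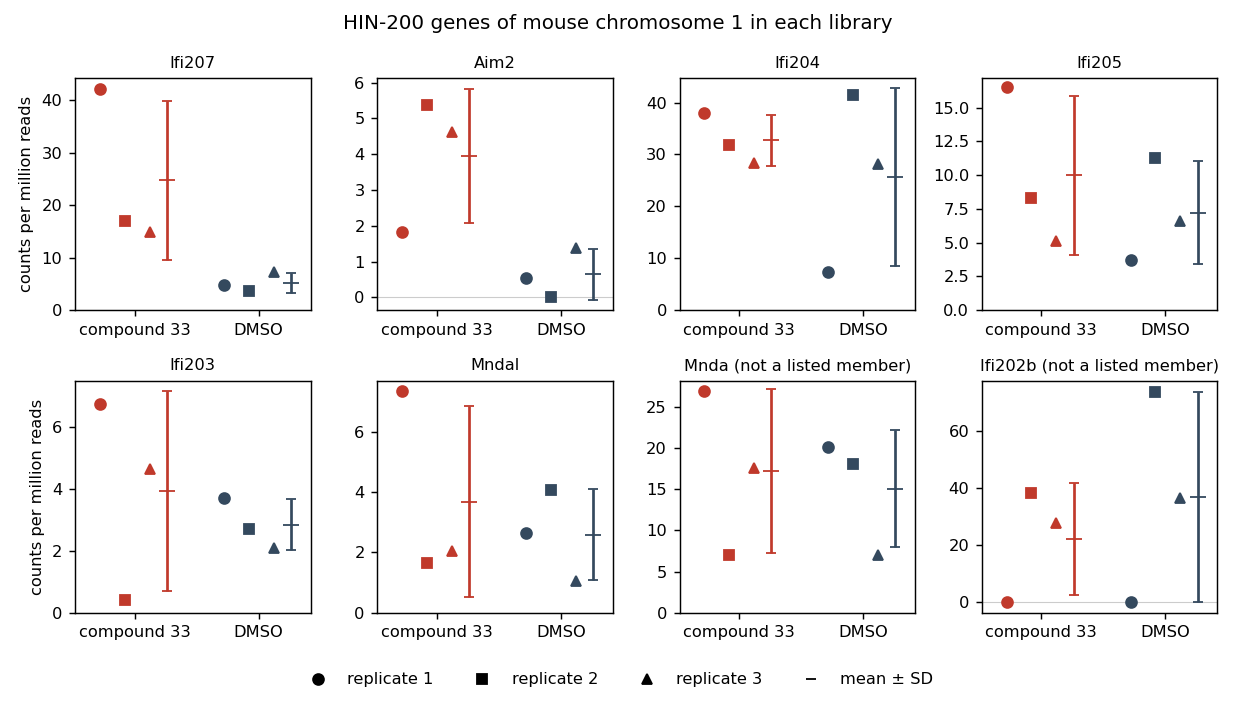
Level of each gene in every library, in CPM (y axis, including 0 and scaled per gene), with compound 33 left of DMSO. Symbols mark the replicate number and bars the mean ± SD of 3 libraries. For Ifi207 and Aim2 the groups do not overlap in CPM, though the unscaled reads of Aim2 do, and Ifi202b is at 0 in replicate 1 of both groups.

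In the order of mean level with compound 33, Ifi204 (32.7 CPM) and Ifi207 (24.7 CPM) led, followed by Ifi205 (9.98 CPM), Aim2 (3.95 CPM), Ifi203 (3.92 CPM) and Mndal (3.68 CPM). With DMSO the order was Ifi204 (25.7 CPM), Ifi205 (7.20 CPM), Ifi207 (5.23 CPM), Ifi203 (2.84 CPM), Mndal (2.59 CPM) and Aim2 (0.641 CPM). With compound 33, neighbours in this order differed by less than the larger of their SDs, except that Ifi205 stood 6.03 CPM above Aim2, beside an SD of 5.87 CPM. With DMSO, 3 of the 5 steps were larger than that: Ifi204 stood 18.5 CPM above Ifi205 (SD 17.2 CPM), Ifi207 2.39 CPM above Ifi203 (SD 1.89 CPM) and Mndal 1.94 CPM above Aim2 (SD 1.51 CPM). The places of Ifi205 and, to a smaller degree, Mndal are uncertain in both orders, because part of their 3′ ends is shared with other family genes.

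Shares within the family do not depend on library scaling. Ifi207 held 37.5%, 26.3% and 25.0% of the reads of the 6 genes with compound 33, against 20.9%, 5.71% and 15.7% with DMSO. These groups did not overlap, although the 95% Wilson interval of compound 33 replicate 3 (18.0% to 33.6%) and that of DMSO replicate 1 (11.4% to 35.2%, from 43 reads) did. Such intervals cover counting error only. Ifi204 held 33.7%, 49.4% and 47.4% with compound 33, against 32.6%, 65.7% and 60.4% with DMSO, and these groups overlapped. The summed level of the 6 genes was 112, 64.7 and 59.7 CPM with compound 33, against 22.8, 63.2 and 46.7 CPM with DMSO, a log2 ratio of means of 0.84. Without Ifi207 the sum was 70.3, 47.7 and 44.8 CPM with compound 33, against 18.0, 59.5 and 39.3 CPM with DMSO, a log2 ratio of 0.48. The groups overlapped for both sums. Over all 13 rows of the cluster, which include Mnda, the log2 ratio of the summed means was 0.30, and 0.70 without Ifi202b. Those groups overlapped too.

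**Figure D3:**
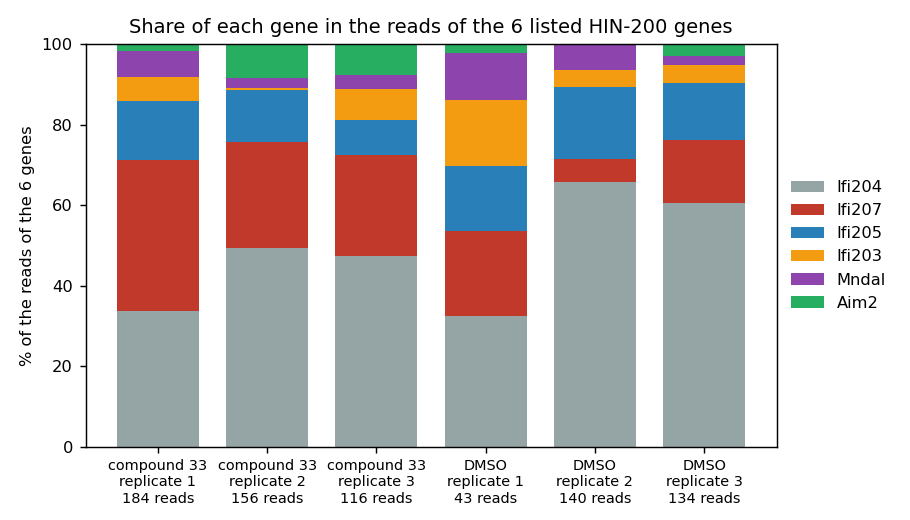
Share of each gene in the reads of the 6 genes (y axis, percent) in every library, with the 3 compound 33 libraries left of the 3 DMSO libraries and the number of reads under each bar. The share of Ifi207 is 25.0% to 37.5% with compound 33 and 5.71% to 20.9% with DMSO.

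Across all genes, 3 members (Ifi204, Ifi205 and Ifi207) were abundant enough to be tested, and Ifi207 passed that filter through its compound 33 libraries. Of these 3, 0 passed edgeR's quasi-likelihood test at an adjusted p of 0.05, a threshold passed by 0.0296% of the 10124 genes tested. At an unadjusted p under 0.05 only Ifi207 was called, where 6.87% of all genes tested were called and 3.64% were called higher with compound 33. Its groups were also the only ones of the 3 that did not overlap, which held for 13.4% of all genes tested and upward for 6.64%. Without a low-count filter edgeR called 1 of the 6 members, Ifi207, beside 0.141% of all genes. DESeq2 also called Ifi207 alone, beside 0.176% of all genes, and limma-voom called 0 members beside 0.0198%. In the authors' deposited table Ifi207 is likewise the only member called, beside 0.179% of the genes given an adjusted p there, and Ifi203, Mndal and Aim2 have none. The authors' deposited table has log2 fold changes of 2.21 (SE 0.51) for Ifi207, 2.55 (SE 1.10) for Aim2, 0.34 (SE 0.44) for Ifi204, 0.45 (SE 0.58) for Ifi205, 0.45 (SE 0.87) for Ifi203 and 0.50 (SE 0.88) for Mndal. Since the comparison chose the family, nothing is read from these counts.

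Of the other rows of the cluster, only Ifi202b and Mnda had enough reads to be tested, and for both the groups overlapped. The rest had too few reads to show a pattern. Ifi202b, whose protein has a pair of HIN domains and no pyrin domain and restrains Aim2, had 0 reads in 2 libraries and was abundant in the other 4. It had 0, 92 and 54 reads (0, 38.1 and 27.8 CPM) with compound 33, against 0, 164 and 105 reads (0, 74.0 and 36.6 CPM) with DMSO. The library numbered 1 in each group lacked it, where 0 reads allow up to 1.83 CPM with compound 33 and 1.59 CPM with DMSO. As background, the transcript level of Ifi202b is known to differ strongly between inbred mouse strains. The labels do not give the strain of each culture, and its part in these values was not tested. Ifi202b did not pass in edgeR (log2 fold change -0.71, SE 1.58, adjusted p = 0.958). Ifi209 had 1 read with compound 33 and 2 with DMSO, Pydc3 had 3 reads, all in compound 33 replicate 1, and Ifi206, Ifi213 and Ifi214 had 0 reads in every library although the last 3 carry the element shown above. Ifi209 and Ifi214 share 63.8% of the 50-base words of their 3′ ends with each other. Ifi206, Ifi213 and Pydc3 share 22.2%, 18.5% and 13.5% with other genes. How the counting treated such reads is not stated, and its part in these low counts was not tested. Among 27 other protein-coding genes within 500 kb of the cluster, 5 had a read and only Fmn2, a formin, was abundant enough to be tested, at 7.01 ± 2.95 CPM with compound 33 and 5.72 ± 2.80 CPM with DMSO (SD, n = 3 each; edgeR adjusted p = 0.958).

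Among the partners of Aim2 in the inflammasome, Pycard, the adaptor between Aim2 and caspase-1, stood at 15.9, 17.0 and 12.4 CPM with compound 33, against 6.89, 4.06 and 4.18 CPM with DMSO. These groups did not overlap, which held upward for 6.64% of all genes tested. The log2 fold change of Pycard was 1.60 (SE 0.38, unadjusted p = 0.000875, adjusted p = 0.341 in edgeR). Like Ifi207, Pycard passed the low-count filter through its compound 33 libraries. The cytokine gene Il18 stood at 9.53 ± 1.51 CPM with compound 33 and 5.28 ± 0.305 CPM with DMSO, and Gsdmd, the pore former gasdermin D, at 41.0 ± 8.36 CPM with compound 33 and 25.4 ± 10.6 CPM with DMSO (SD, n = 3 each; edgeR adjusted p = 0.720 for both). Casp1, or caspase-1, had means within their spread, at 13.0 ± 4.16 CPM with compound 33 and 14.2 ± 1.52 CPM with DMSO (SD, n = 3 each). Casp8, the apoptotic caspase-8, stood at 21.4, 21.1 and 11.8 CPM with compound 33, against 24.9, 24.4 and 27.9 CPM with DMSO (log2 fold change -0.51, SE 0.29). Among the tested inflammasome genes, 2 were higher without overlap of the groups, Pycard and Il18, and 1, Casp8, was lower without overlap. Groups without overlap, in either direction, were found for 13.4% of all genes tested. Il1b, which encodes interleukin-1β, had 0 reads in every library, as did the sensor genes Nlrc4, Nlrp1b and Mefv. Of 16 listed inflammasome genes 8 were tested, 0 passed in edgeR, DESeq2 or limma-voom, and 3 lay under an unadjusted p of 0.05 in edgeR, all higher with compound 33, namely Pycard, Il18 and Gsdmd. Of all genes tested, 3.64% were called higher at that threshold. The median log2 fold change of the 8 was 0.16, beside -0.01 over all genes tested.

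Of 13 tested genes that sense cytosolic DNA or signal through STING, 2 had a positive log2 fold change and 11 a negative one, with a median of -0.14, and 0 passed in edgeR, DESeq2 or limma-voom or lay under an unadjusted p of 0.05 in edgeR. Tmem173, which encodes STING, stood at 126 ± 18.9 CPM with compound 33 and 152 ± 37.6 CPM with DMSO (SD, n = 3 each). The kinase Tbk1 and the transcription factor Irf3 had log2 fold changes of -0.28 (SE 0.40) and -0.06 (SE 0.36). Zbp1, a sensor of Z-form nucleic acids, had 0.56 (SE 0.28), and Enpp1, which degrades the messenger that activates STING, -0.44 (SE 0.25). Mb21d1, which encodes the DNA sensor cGAS, was irregular, with 28, 30 and 329 reads with compound 33, against 15, 1208 and 27 reads with DMSO. A single library of each group stood far above the rest, and these 2 libraries bear different replicate numbers.

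Regulators of the interferon response had mixed values. Irf7, a transcription factor of the interferon response, stood at 18.3, 9.54 and 16.0 CPM with compound 33, against 4.77, 4.51 and 6.27 CPM with DMSO, and the groups did not overlap (log2 fold change 1.45, SE 0.39, adjusted p = 0.401 in edgeR). Like Ifi207, Irf7 passed the low-count filter through its compound 33 libraries, with 30, 23 and 31 reads. With DMSO it had 9, 10 and 18 reads. Stat2 stood at 56.2, 25.3 and 28.3 CPM with compound 33, against 17.0, 21.7 and 20.2 CPM with DMSO (log2 fold change 0.88, SE 0.32), again without overlap. Higher values without overlap were found for 6.64% of all genes tested. Irf9, a subunit of the complex that binds the element shown above, had a log2 fold change of 0.24 (SE 0.26). Usp18, a feedback inhibitor of the interferon receptor, was high in 1 library, at 44.6, 10.4 and 11.3 CPM with compound 33, against 11.7, 8.57 and 10.8 CPM with DMSO. Ifnb1, which encodes interferon-β, had 0 reads in every library. Of 16 tested genes of interferon signalling, 13 were on the positive side, the median log2 fold change was 0.27, and 0 passed in edgeR, DESeq2 or limma-voom. Under an unadjusted p of 0.05 in edgeR, 6 of them were higher, beside 3.64% of all genes tested, and 1, Socs3, was lower.

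Among interferon-stimulated genes outside the family, 33 of 39 tested had a positive log2 fold change, where 48.9% of all genes did. Their median was 0.72, beside 0.43 for the 3 tested members. In edgeR 0 passed and 17 lay under an unadjusted p of 0.05, all higher, where 3.64% of all genes tested were called higher. DESeq2 called 2 and limma-voom 0. The low-count filter can admit a gene through its libraries of 1 group alone, so the tally over tested genes is a description. The largest values belonged to the antiviral genes Rsad2, Ifit3 and Ifit3b, with log2 fold changes of 3.31, 1.93 and 1.65. Rsad2 had 3, 1 and 4 reads with DMSO and passed the filter through its compound 33 libraries, with 32, 17 and 19 reads. Ifit3 was lowest in compound 33 replicate 2 of its group, at 213, 58.5 and 203 CPM with compound 33, against 48.3, 37.9 and 38.3 CPM with DMSO, whereas Ifi207 was lowest in replicate 3. Over all promoters and with the HIN-200 genes left out, 297 tested genes had the element in a window. Their median log2 fold change was 0.03, beside -0.01 for 7686 genes without it. At an unadjusted p under 0.05 in edgeR, 5.39% of these genes with the element and 3.45% of those without were higher, and 2.69% and 3.17% were lower.

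**Figure D4:**
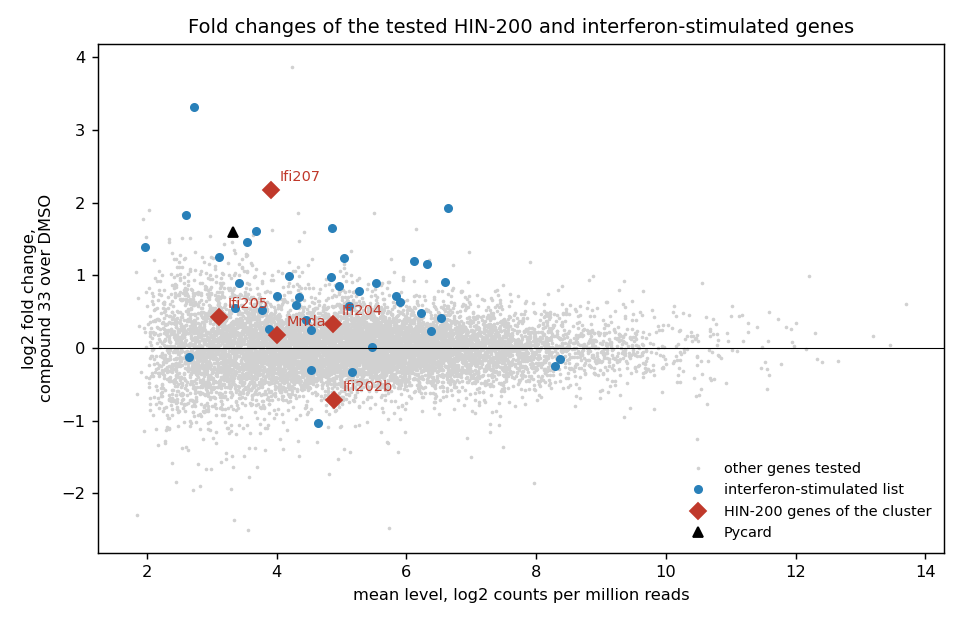
Log2 fold change of compound 33 over DMSO (y axis) against mean level in log2 CPM (x axis) for the 10124 genes tested. Ifi207 lies at 2.18 among the higher interferon-stimulated genes, while Ifi204, Ifi205 and the row Mnda lie between 0.18 and 0.43.

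The genes most like Ifi207 over the 6 libraries were sought among 8526 tested genes with a mean of at least 10 CPM outside the cluster, by the root mean square difference of log2 CPM after each gene was centred on its own mean. The closest was Ifih1, the RNA sensor MDA5, with a difference of 0.40, at 27.5, 14.5 and 9.27 CPM with compound 33, against 6.36, 4.96 and 6.96 CPM with DMSO. It was followed by Syk, a tyrosine kinase (0.45), Klf9, a transcription factor (0.48), Mfsd6, a membrane protein (0.56), and Rtp4, an interferon-stimulated gene (0.57). All except Rtp4 had groups that did not overlap, and all except Rtp4 were, like Ifi207, highest in compound 33 replicate 1 and lowest of that group in replicate 3. Since they were chosen for their likeness to Ifi207, their differences are a description.

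**Figure D5:**
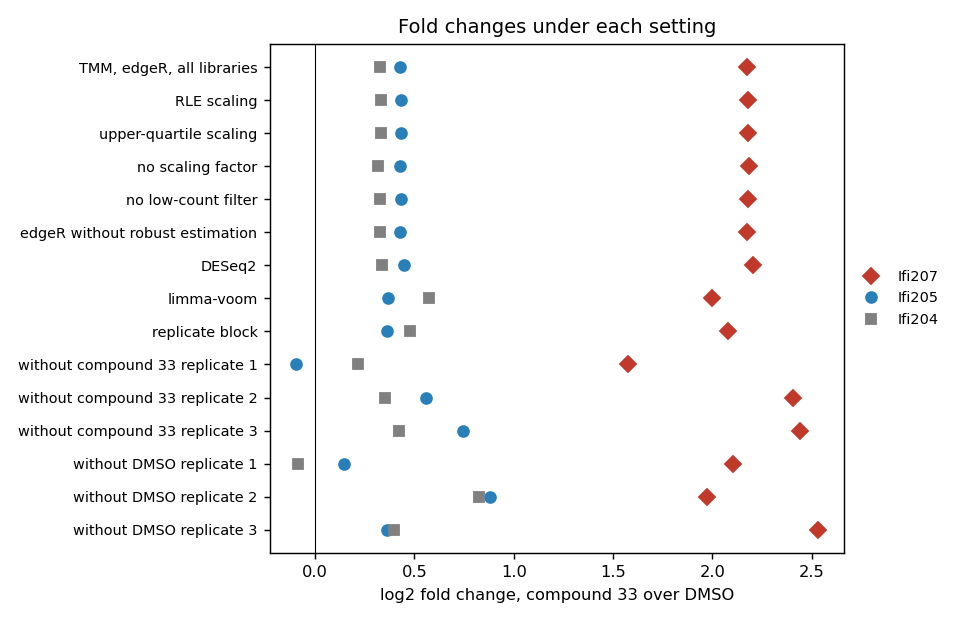
Log2 fold change of compound 33 over DMSO (x axis) for Ifi207, Ifi205 and Ifi204 under each setting (rows). Ifi207 stays between 1.57 and 2.53, whereas Ifi205 and Ifi204 each fall below 0 when 1 library is left out.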

How the data were processed

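RNA was measured in 3 libraries with compound 33 and 3 with DMSO, made with a QuantSeq 3′ kit and sequenced on an Ion Proton, per the labels' protocols. Tools listed in the submitters' processing notes are HISAT2 2.2.1, featureCounts 2.0.3, FastQC 0.11.9 and DESeq2, with the build mm10. Which annotation and strand setting were used, and how multiply matching reads were counted, the sources used here do not state. The authors deposited whole-number read counts per gene symbol without normalization. In their deposited comparison, the mean normalized count is a signal, the fold change and its error are on the log2 scale, the Wald statistic is a score, and the p-value and adjusted p-value are given.

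Counts were fitted in R 4.3.3 with edgeR 4.0.16, with TMM scaling, genes kept by filterByExpr (minimum count 10), a robust quasi-likelihood F test with group as the only term over all 6 libraries, two-sided, and Benjamini-Hochberg adjustment over 10124 genes. The SE is the unshrunk log2 fold change over the square root of F. Log2 CPM used a prior count of 2. DESeq2 1.42.0, limma-voom (limma 3.58.1), other scalings and filters, a replicate block and each library left out were alternatives. The biological coefficient of variation was 23.6%, and the Wilson intervals and the 3-read floors cover counting error only, whereas the intervals of fold changes include the spread among libraries.

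Positions and transcripts are from GENCODE M21 on mm10, and promoter windows from RefSeq on GRCm38.p6. The members, gene lists and motifs were chosen with earlier results of these data known. Named are all members, every row of the cluster with a read, inflammasome, DNA-sensing and interferon genes with a direct role, the 3 largest fold changes of each list at 10 CPM or more in the higher group, the 5 genes most like Ifi207, tested neighbours within 500 kb, and fibroblast markers. Socs3, Pdgfrb, inflammasome genes at 0 reads and the genes of the next section were named after their values were seen. A gene covered by this rule is not reported here.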

Additional observations from a re-analysis of the deposited data

How the results depend on the processing

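The comparison called 3 genes in edgeR, against 21 without a low-count filter, 18 in DESeq2, 7 with the replicate block, and 1 to 7 with each library left out (1 without compound 33 replicate 1 or DMSO replicate 3, 7 without DMSO replicate 1). It called 0 of the 6 members, against 1 without a low-count filter and 1 in DESeq2, each time Ifi207, and 0 with each library left out. The log2 fold change of Ifi207 ran from 1.57 without compound 33 replicate 1 to 2.53 without DMSO replicate 3. It was 2.08 with the replicate block, and under a minimum count of 30 it was not tested. The replicate block also took Rsad2 (edgeR adjusted p = 0.0277) and Ifit3 (adjusted p = 0.0478) past the threshold. Whether libraries of the same number are paired is not given in the labels. Ifi202b, H2-DMb2 and C1s1 each had 0 reads in both libraries of a number, as described under the other observations. Deviations from the group means correlated at -0.03, 0.21 and 0.08 across 10124 genes for the numbers 1, 2 and 3, and DMSO replicate 1 correlated best with compound 33 replicate 3 (0.15). With each library left out, the log2 fold change ran from -0.087 to 0.82 for Ifi204, -0.10 to 0.88 for Ifi205, -1.37 to 0.23 for Ifi202b, -0.29 to 0.59 for Mnda, -0.41 to 0.045 for Casp1, -3.68 to 2.92 for Mb21d1, -0.67 to 0.10 for Tbk1, -0.32 to 0.28 for Irf3, -0.43 to 0.25 for Pdpn, -0.093 to 0.36 for Prg4, -0.39 to 0.022 for Pdgfra and -0.14 to 0.71 for Fmn2. Mb21d1 had 0.28 with the replicate block and Irf3 0.043 in limma-voom. The log2 ratio of the summed members ran from 0.49 to 1.19 with each library left out. The cause of these changes was not tested. The low read numbers of Aim2, Ifi203 and Mndal limit what their differences can show.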

Other observations

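Ifi202b was not the only gene that was missing by replicate number. With at most 1 read in both libraries of a number and at least 10 reads in each of the other 4, there were 2 genes for number 1, Ifi202b and H2-DMb2, 1 gene for number 2, C1s1, and 0 for number 3. H2-DMb2, an MHC class II chaperone chain, had 0, 51 and 97 reads with compound 33, against 0, 44 and 74 reads with DMSO. C1s1, a complement protease, had 291, 0 and 204 reads with compound 33, against 124, 0 and 368 reads with DMSO. For the 6 pairs of libraries with different numbers there were 0 such genes each. Across 10124 genes, deviations from the group means correlated at 0.21 for number 2, the highest of the 9 pairs of libraries from different groups, but at -0.03 and 0.08 for numbers 1 and 3. Whether a number marks a shared animal or culture is not given in the labels.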
